A study of Mus musculus with 6 samples.

Results

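The caspases and the genes of the apoptosome were examined in mouse ovarian granulosa cells (GCs) after treatment with cyclophosphamide (CTX), an alkylating drug used in chemotherapy. The 7 genes were Casp2, Casp6, Casp8 and Casp9, which encode caspases, Apaf1 and Cycs, whose products assemble the apoptosome, and Diablo, whose product relieves the inhibition of caspases. They were picked by name and role from the 54532 genes of the deposited table, by a rule that uses no measured value, but with earlier results of these data known. All 7 were expressed above the limit set for testing, a mean of at least 0.5 FPKM (fragments per kilobase of gene, scaled to sequencing depth).

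The GCs came from 3-week-old female ICR mice, an outbred strain. All mice, controls included, had received 5 IU of PMSG, a gonadotropin that drives follicle growth, and 22 h later a single injection of either PBS or 120 mg/kg CTX. The cells were collected 6 h after that injection. RNA-seq was done on 3 PBS and 3 CTX samples, and each sample pooled the GCs of 3 mice. The values describe collected cells 6 h after exposure, and cells already lost by then could not contribute to them.

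Between 16005869 and 17790353 reads fell on genes in the PBS samples and between 17727770 and 18455011 in the CTX samples. CTX replicate 2 stood apart from the other samples on the first principal component, which held 46.8% of the variance, with a score of 74.7 against -9.8 and 13.2 for CTX replicates 1 and 3 and -26.6 to -25.3 for the PBS samples. Markers of GCs were abundant everywhere. Over 10 genes they summed to 11750 to 12982 FPKM in PBS and 10586 to 11245 FPKM in CTX. Of the 10, 6 were lower in every CTX sample than in every PBS sample and 1 was higher. Of all genes tested, 14.1% were lower in this sense and 15.0% were higher, the shares for the marker counts below as well. The 9 leukocyte markers summed to 23.1 to 25.8 FPKM in PBS and 27.2 to 72.6 FPKM in CTX, with the highest value in CTX replicate 2, and 3 of the 9 were higher in every CTX sample. Lyz2 made up most of this sum. Among the CTX samples, every leukocyte marker but Cd52 was highest in CTX replicate 2, though Ptprc stayed within its PBS range there. The 4 theca cell markers summed to 55.8 to 56.9 FPKM in PBS and 10.3 to 75.7 FPKM in CTX, with the lowest value in CTX replicate 2. They did not move together. In CTX replicate 2, Cyp17a1 (1.25 FPKM) and Star (1.73 FPKM) were at their lowest of all samples. Ptch1 (6.55 FPKM) was at its highest there, and Insl3 (0.814 FPKM, 9 reads) was above its PBS values. The 6 endothelial markers summed to 5.63 to 6.26 FPKM in PBS and 2.39 to 5.15 FPKM in CTX, again lowest in CTX replicate 2, and 2 of the 6 were lower in every CTX sample. The sums of 6 oocyte markers (31.4 to 65.1 FPKM in PBS and 43.0 to 78.6 FPKM in CTX) and 4 erythroid markers (312 to 447 and 131 to 490 FPKM) overlapped between the groups. Inha made up most of the GC sum, and single GC markers moved more: Cyp19a1, the aromatase gene, was at 59.2 to 62.4 FPKM in PBS and at 47.6, 6.61 and 32.5 FPKM in CTX replicates 1, 2 and 3. No marker of these lists was at 0 in all samples, and what part the shifts in markers had in the results below was not tested.

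Caspases are proteases that dismantle a cell during apoptosis, and they are made as inactive precursors. Initiator caspases are switched on by being brought together on a platform: caspase-8 on death receptors, caspase-2 on the PIDDosome and caspase-9 on the apoptosome. The apoptosome forms when cytochrome c, the product of Cycs, leaves the mitochondria and binds Apaf1, and caspase-9 then cleaves executioner caspases, the group to which caspase-6 is counted. Diablo, also called Smac, is released from mitochondria as well and blocks the inhibitor of apoptosis proteins (IAPs) that restrain caspases. In the ovary, apoptosis of GCs accompanies atresia, the loss of follicles that do not go on to ovulate. A transcript level says nothing of whether a precursor has been cleaved.

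The DNA just before the start of the genes is shown for the 3 core apoptosome genes, which differed in their response, and for Casp2, in which listed motifs were found. The sequences are RefSeq promoter stretches of GRCm38.p6, read 5' to 3' on the strand of the gene, and they stop before the first transcribed base given by either annotation. They lie at chr10:91082771-91082993 (minus strand, 223 bases) for Apaf1, chr4:141793362-141793611 (plus strand, 250 bases) for Casp9, chr6:50566570-50566819 (minus strand, 250 bases) for Cycs and chr6:42264735-42264984 (plus strand, 250 bases) for Casp2. Capitals mark the CRE motif TGACGTCA in Cycs and, in Casp2, the E2F motif TTTCCCGC and the NRF1 core TGCGCA.
Apaf1: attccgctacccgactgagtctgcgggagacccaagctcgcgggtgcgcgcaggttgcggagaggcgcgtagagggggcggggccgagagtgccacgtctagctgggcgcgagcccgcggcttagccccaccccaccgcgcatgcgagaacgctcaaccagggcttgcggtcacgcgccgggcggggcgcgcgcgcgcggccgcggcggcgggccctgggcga
Casp9: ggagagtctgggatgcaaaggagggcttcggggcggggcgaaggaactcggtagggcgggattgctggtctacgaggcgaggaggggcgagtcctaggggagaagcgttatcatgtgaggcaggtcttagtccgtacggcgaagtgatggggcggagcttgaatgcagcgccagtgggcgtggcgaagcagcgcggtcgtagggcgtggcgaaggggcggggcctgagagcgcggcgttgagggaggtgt
Cycs: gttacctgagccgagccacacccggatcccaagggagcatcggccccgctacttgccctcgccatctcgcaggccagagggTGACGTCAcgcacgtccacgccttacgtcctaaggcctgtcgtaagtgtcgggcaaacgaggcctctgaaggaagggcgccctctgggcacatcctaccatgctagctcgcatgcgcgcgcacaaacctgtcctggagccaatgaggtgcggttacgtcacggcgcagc
Casp2: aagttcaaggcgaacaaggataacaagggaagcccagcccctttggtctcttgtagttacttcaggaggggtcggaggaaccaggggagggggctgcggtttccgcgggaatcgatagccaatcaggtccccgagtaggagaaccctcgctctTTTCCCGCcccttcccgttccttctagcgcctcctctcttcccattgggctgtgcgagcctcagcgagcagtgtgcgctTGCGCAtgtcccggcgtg

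Motifs were searched on both strands in the 250 bases before and the 50 bases after each RefSeq start, for all 7 genes and for 32851 promoters in all. A p53 response element of 2 half-sites separated by 0 to 13 bases was in none of the 7 windows and in 0.0731% of all promoters. The E2F motif TTTGGCGC was in none of the 7 and in 0.514% of all, and TTTCCCGC was in Casp2 alone and in 1.07% of all. The NRF1 core TGCGCA was also in Casp2 alone among the 7 and in 7.76% of all promoters. The CRE motif, which was added after the sequences had been seen, was in Cycs alone and in 1.79% of all. A match is only a run of letters, and the absence of one concerns only these windows and the exact forms searched. Other forms of the E2F, NRF1 and CRE motifs were not searched, so a gene without a match may still hold one. The stretch before Apaf1 had a GC content of 76.2%, against 66.0% for Casp9, 64.0% for Cycs and 60.4% for Casp2.

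The series asked how gene expression in GCs differed 6 h after CTX, in connection with apoptosis, and the 7 genes were compared between CTX and PBS. Apaf1 rose after CTX treatment, 1.80-fold (95% interval 1.51 to 2.15), and the other 6 genes did not pass the test. In the limma fit across 14463 genes, 0 of the 7 genes met both limits set by the study, an adjusted p below 0.05 and more than 2-fold between the groups, against 0.961% of all genes tested (139 genes). The study set these limits for its own comparison, which was not used here, so these counts are not those of the study. Without the fold threshold, 1 of the 7 was higher with an adjusted p below 0.05, against 1.40% of all genes, and 0 were lower, against 0.360%. At an unadjusted p below 0.05 the number was also 1 of 7, where 19.6% of all genes lay, and limma's voom on reads rebuilt from the FPKM values gave 0 past both thresholds and 1 past the adjusted p. In 2 of the 7 genes, Apaf1 and Casp6, all CTX samples were higher than all PBS samples, against 15.0% of all genes, and in 0 of the 7 all were lower, against 14.1%. The median log2 fold change of the 7 genes was 0.06 and that of all genes tested was -0.01.

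**Figure D1:**
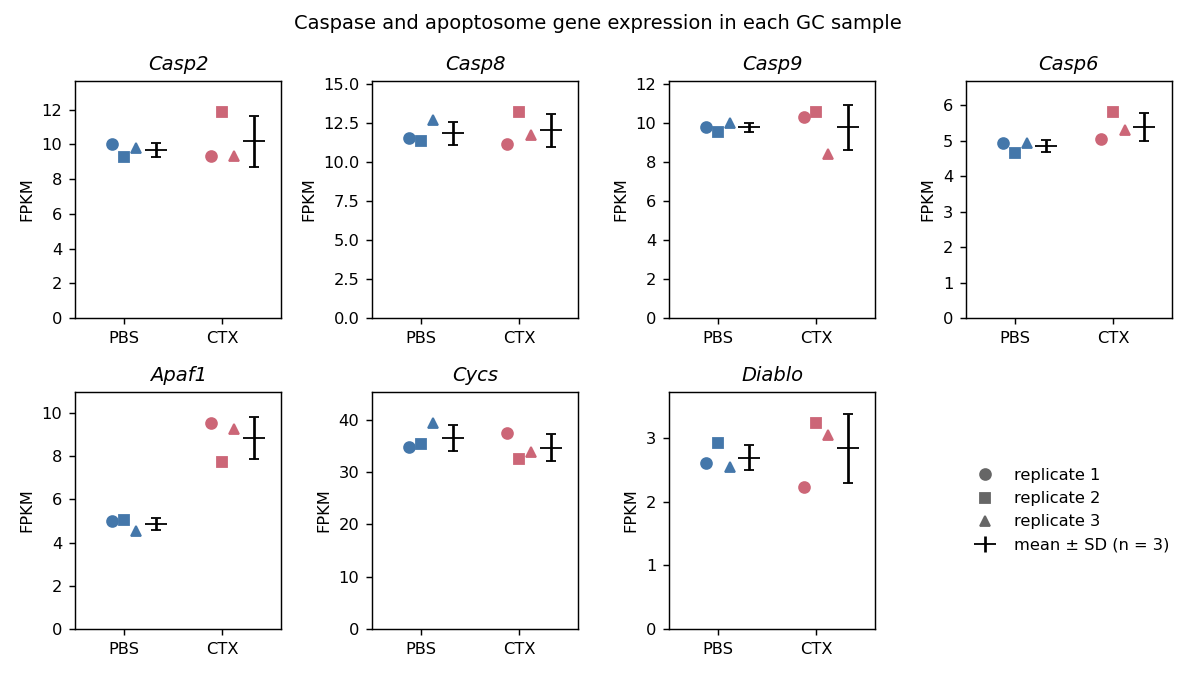
FPKM of each of the 7 genes in every sample, with PBS in blue, CTX in red, a marker shape for each replicate number, and the mean ± SD (n = 3) beside the points. The CTX points of Apaf1 lie between 7.74 and 9.55 FPKM, all above its PBS points at 4.51 to 5.04, while the points of the 5 genes other than Apaf1 and Casp6 overlap between the groups.

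Apaf1, the scaffold of the apoptosome and a known p53 target, lies on the minus strand at chr10:90989311-91082770 (GRCm38, GENCODE M21) and has up to 27 exons. Its level was 5.01, 5.04 and 4.51 FPKM in PBS replicates 1 to 3 and 9.55, 7.74 and 9.26 FPKM in CTX replicates 1 to 3. The groups were apart, and CTX replicate 2 was the lowest of the CTX samples. The mean went from 4.85 ± 0.295 FPKM in PBS to 8.85 ± 0.973 FPKM in CTX (SD, n = 3 each), resting on 660 to 834 reads per PBS sample and 1240 to 1563 reads per CTX sample. On the scale of log2(FPKM + 0.1) the difference was 0.85 (SE 0.11, 95% interval 0.59 to 1.11; limma, adjusted p = 0.019). The interval reached across 2-fold. The exact permutation test over the 6 samples, two-sided, gave p = 0.1, which is the smallest value that 3 samples against 3 allow. For the other 6 genes that test gave 0.1 for Casp6 and 0.4 to 1 for the rest.

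The adjusted p of Apaf1 was below 0.05 in 2 of 6 fits with a single sample omitted, at 0.037 without CTX replicate 1 and 0.0041 without CTX replicate 2. It was 0.098, 0.102 and 0.105 without PBS replicates 1, 2 and 3 and 0.096 without CTX replicate 3, although the log2 fold change stayed between 0.79 and 0.94 in all 6 fits. Apaf1 was lowest among the CTX samples in CTX replicate 2, and the Apaf1 difference was 0.94 (SE 0.08) without that sample. Among the CTX samples, the leukocyte and oocyte marker sums were highest there, and the theca, endothelial and erythroid sums were lowest. Cdkn1a, Mdm2, Ccng1, Eda2r, Bax, Bbc3, Pmaip1 and Pidd1, pathway genes that rose after CTX (below), were also lowest there. Of the other pathway genes that rose, Lmna was highest there and Mcl1 was in between. Whether these patterns are linked was not tested. In a bulk sample, a change in the share of a cell type and a change in RNA per cell cannot be told apart.

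Casp9, the initiator caspase that Apaf1 recruits, lies at chr4:141793612-141815976 on the plus strand with up to 9 exons. It was at 9.80, 9.54 and 10.0 FPKM in PBS and 10.3, 10.6 and 8.43 FPKM in CTX. The highest and the lowest of the 6 values were both CTX samples. The means were 9.78 ± 0.232 and 9.78 ± 1.17 FPKM (SD, n = 3 each), and the log2 difference was -0.01 (SE 0.10, limma, adjusted p = 0.976), with a 95% interval of 0.839-fold to 1.18-fold. Only 1.81% of its exon bases are shared with Cela2a and Ctrc on the opposite strand, and neither had more than 65 reads in any sample.

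Cycs, which encodes somatic cytochrome c of the respiratory chain and the trigger of the apoptosome, lies at chr6:50562563-50566538 on the minus strand with up to 3 exons. Its level was 34.8, 35.4 and 39.4 FPKM in PBS and 37.5, 32.5 and 33.9 FPKM in CTX. The groups overlapped, with CTX replicate 1 above 2 of the PBS samples. The means were 36.5 ± 2.51 and 34.6 ± 2.58 FPKM (SD, n = 3 each), and the log2 difference was -0.08 (SE 0.08, limma, adjusted p = 0.620), with a 95% interval of 0.823-fold to 1.09-fold. Cycs has processed copies in the genome, of which the 2 that carry its name in the table had 0 reads, and how reads shared between copies were assigned is not given in the sources used here, so its level is uncertain to that extent.

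Within each sample, the level of Apaf1 was set against that of its partners. Per length, Apaf1 was at 0.511, 0.528 and 0.451 of the level of Casp9 in the PBS samples and at 0.925, 0.733 and 1.10 of it in the CTX samples. Cycs was 6.94, 7.03 and 8.73 times the level of Apaf1 in PBS and 3.93, 4.20 and 3.66 times in CTX. The groups were apart in both ratios, and scaling between samples drops out of them. Both ratios contain Apaf1, and neither Casp9 nor Cycs passed the test, so the ratios are not evidence independent of the rise of Apaf1. In PBS, Apaf1 transcripts were the scarcest of the apoptosome trio in every sample, and in CTX replicate 3 they were above those of Casp9.

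**Figure D2:**
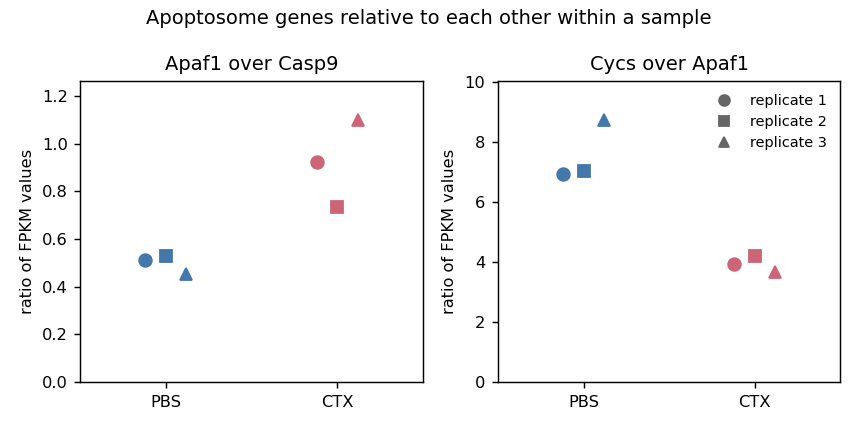
Ratio of FPKM values within each sample, Apaf1 over Casp9 on the left and Cycs over Apaf1 on the right, for PBS (blue) and CTX (red) with a marker shape for each replicate number. The Apaf1 over Casp9 ratio lies at 0.451 to 0.528 in PBS and 0.733 to 1.10 in CTX, and the Cycs over Apaf1 ratio lies at 6.94 to 8.73 in PBS and 3.66 to 4.20 in CTX.

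Casp8, the initiator of the death receptor pathway, lies at chr1:58795374-58847503 on the plus strand with up to 10 exons. Its values were 11.5, 11.4 and 12.7 FPKM in PBS and 11.2, 13.2 and 11.8 FPKM in CTX. The lowest and the highest of the 6 values were both CTX samples. The log2 difference was 0.02 (SE 0.09, limma, adjusted p = 0.916), with a 95% interval of 0.873-fold to 1.18-fold around means of 11.9 ± 0.735 and 12.1 ± 1.05 FPKM (SD, n = 3 each).

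Casp2, the initiator caspase of the PIDDosome, lies at chr6:42264985-42282508 on the plus strand with up to 12 exons. Its values were 10.0, 9.26 and 9.79 FPKM in PBS and 9.34, 11.9 and 9.35 FPKM in CTX. CTX replicate 2 was above all the other samples, and the other CTX samples lay within the PBS range. The means were 9.68 ± 0.383 and 10.2 ± 1.46 FPKM (SD, n = 3 each), and the log2 difference was 0.06 (SE 0.11, limma, adjusted p = 0.766), with a 95% interval of 0.868-fold to 1.26-fold. Without CTX replicate 2 the difference was -0.05 (SE 0.07).

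Casp6, an executioner caspase known for cleaving lamin A, lies at chr3:129901425-129914103 on the plus strand with up to 7 exons. Its values were 4.94, 4.66 and 4.95 FPKM in PBS and 5.04, 5.81 and 5.30 FPKM in CTX. The groups were apart, but CTX replicate 1 lay just above the highest PBS sample. The means were 4.85 ± 0.167 and 5.38 ± 0.394 FPKM (SD, n = 3 each). The log2 difference of 0.15 (SE 0.09) did not pass the test (limma, adjusted p = 0.384), its 95% interval ran from 0.957-fold to 1.28-fold, and it was 0.09 without CTX replicate 2.

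Diablo, the IAP antagonist, lies at chr5:123509765-123524176 on the minus strand with up to 7 exons. Its FPKM values were the lowest of the 7 genes, at 2.60, 2.92 and 2.55 FPKM in PBS and 2.23, 3.25 and 3.05 FPKM in CTX, from 249 to 355 reads per sample. The CTX samples lay on both sides of the PBS range. The means were 2.69 ± 0.199 and 2.84 ± 0.540 FPKM (SD, n = 3 each), and the log2 difference was 0.06 (SE 0.16, limma, adjusted p = 0.852). Its 95% interval, 0.795-fold to 1.37-fold, was the widest of the 7 on the log2 scale. Of its exon bases, 21.5% overlap B3gnt4 on the opposite strand, which had at most 1 read in a sample, and 19.4% overlap Gm49027 on the same strand, which had at most 19 reads. A further 122 bases overlap AC157931.1 on the opposite strand, with up to 130 reads, and the strand setting of the counting is not given in the sources used here. Reads of Diablo on shared exon bases may have gone uncounted, which was not tested. Its level and its rank among the 7 genes are uncertain to that extent.

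**Figure D3:**
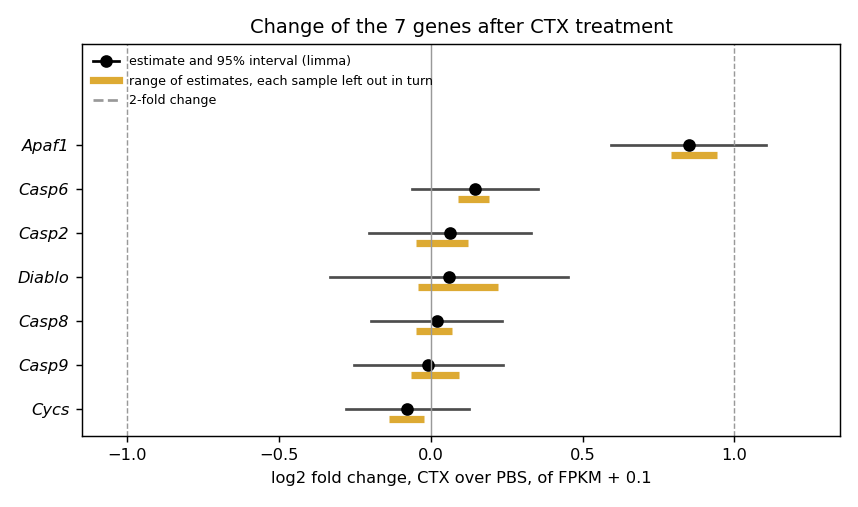
Difference between CTX and PBS on the log2(FPKM + 0.1) scale for the 7 genes, with the estimate and its 95% interval from limma (black), the range of the 6 estimates with each sample left out in turn (yellow) and dashed lines at a 2-fold change. The interval of Apaf1, 0.59 to 1.11, lies above 0 and includes 2-fold, whereas the intervals of the other 6 genes include 0 and stop short of a 2-fold change.

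The level of the 7 genes, per length, spanned from Diablo at 2.69 FPKM to Cycs at 36.5 FPKM in PBS. Among the PBS means of all genes tested, Cycs exceeded 89.8%, Casp8 68.2%, Casp9 63.2%, Casp2 62.9%, Apaf1 43.9%, Casp6 43.8% and Diablo 30.3%. The order in PBS was Cycs, Casp8, Casp9, Casp2, Apaf1, Casp6 and Diablo, in which the ranges of Casp9 and Casp2 overlapped, as did those of Apaf1 and Casp6, and the other neighbours were apart. In CTX the ranges of Casp8, Casp2, Casp9 and Apaf1 ran into each other in that order, and Cycs above them and Casp6 and Diablo below them were apart from their neighbours. Apaf1 thus shared the level of Casp6 in PBS and overlapped that of Casp9 in CTX.

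The CTX samples varied more than the PBS samples. The coefficient of variation was larger in CTX for 7 of 7 genes, from 7.32% for Casp6 to 19.0% for Diablo in CTX and from 2.37% for Casp9 to 7.38% for Diablo in PBS. It was larger in CTX for 69.1% of all genes tested, whose medians were 7.35% in PBS and 12.9% in CTX. Counting error for the mean number of reads in PBS was 2.15% for Cycs to 5.87% for Diablo, so Casp9 at 2.37% and Casp6 at 3.44% varied in PBS no more than their counting errors of 3.36% and 4.60%. CTX replicate 2 was the highest CTX sample for 5 of the 7 genes and the lowest for Apaf1 and Cycs. Without it, the log2 differences of Casp8, Casp9, Cycs and Diablo were -0.05, -0.07, -0.03 and -0.04.

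The genes whose pattern was most like that of Apaf1 over the 6 samples, by Pearson's r of log2(FPKM + 0.1) among protein-coding genes tested, were Mybl1 (r = 0.999), Aen (r = 0.998) and Mab21l3 (r = 0.998). Aen, which encodes an apoptosis-enhancing nuclease, was at 5.49 to 6.12 FPKM in PBS and 10.8 to 13.2 FPKM in CTX, with its lowest CTX value in CTX replicate 2 as for Apaf1. Mybl1, a MYB family transcription factor, was at 1.66 to 2.01 FPKM in PBS and 3.52 to 4.72 FPKM in CTX. Mab21l3 was the scarcest, at 0.222 to 0.280 FPKM in PBS and 1.09 to 1.91 FPKM in CTX. For Casp6, the member with the next lowest p, they were Pcca (r = 0.999), Snai2 (r = 0.995) and Tpd52 (r = 0.995), all with their highest value in CTX replicate 2. These correlations describe 6 samples that share 2 groups and, in CTX, 1 sample that stood apart.

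The other genes of the caspase pathway were taken from 7 lists with 50 genes, of which 46 were tested. Of these 46 genes, 10 rose with an adjusted p below 0.05, 6 of them by more than 2-fold, and 0 fell. Of all genes tested, 1.40% rose and 0.360% fell with an adjusted p below 0.05. The share that also changed more than 2-fold, 0.961%, counts both directions. The lists were chosen with earlier results known, and Cdkn1a, Ccng1 and Eda2r of the p53 reference targets are genes the study itself singled out in these samples, so the count is not independent evidence of direction. Without the p53 reference targets, 6 of 42 genes rose, 3 of them by more than 2-fold. At an unadjusted p below 0.05, 12 of the 46 were higher and 3 lower, where 19.6% of all genes passed in either direction, and voom gave 10 higher and 0 lower past the adjusted p. The median log2 difference over the 46 genes was 0.04. The genes that rose belonged mainly to the mitochondrial gate, which governs the release of cytochrome c, and to the p53 reference targets, a short list of textbook p53 targets.

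Of the 4 other caspases reported here, only Casp12 was tested, at under 1 FPKM, and it gave a log2 difference of 0.61 (SE 0.28, limma, adjusted p = 0.288) that did not pass the test. Casp1, Casp4 and Casp14 were below the limit for testing.

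Of the 7 genes for the platforms of caspase-2 and caspase-8, only Pidd1 rose. Pidd1, the p53-induced scaffold of the PIDDosome, was at 6.63, 6.84 and 6.38 FPKM in PBS and 18.7, 13.7 and 18.9 FPKM in CTX, with CTX replicate 2 the lowest of the CTX samples. The log2 difference was 1.34 (SE 0.14, limma, adjusted p = 0.0076). The adaptor genes Cradd, Fadd, Ripk1, Tradd and Traf2 and the caspase-8 regulator Cflar did not pass the test, and the median of the list was -0.07. For caspase-2, the scaffold gene of its platform rose, and the log2 difference of Casp2 itself was 0.06.

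In the mitochondrial gate, 4 of 8 genes rose, 2 of them by more than 2-fold. Bbc3, which encodes the BH3-only protein PUMA, rose from 2.12 to 2.77 FPKM in PBS to 14.8 to 22.3 FPKM in CTX (log2 difference 2.84, SE 0.18, limma, adjusted p = 0.0015). Pmaip1, which encodes the BH3-only protein NOXA, was at 0.117 to 0.127 FPKM, or 5 to 6 reads, in PBS and 2.75 to 3.98 FPKM in CTX (3.99, SE 0.23, limma, adjusted p = 0.0012). Bax, which forms pores in the outer mitochondrial membrane, went from a mean of 33.6 ± 3.72 FPKM to 59.0 ± 4.72 FPKM (SD, n = 3 each), a log2 difference of 0.81 (SE 0.11, limma, adjusted p = 0.021). Mcl1, a pro-survival gene whose product restrains that step, also rose, by 0.59 on the log2 scale (SE 0.07, limma, adjusted p = 0.017). The median of the 8 genes was 0.43.

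None of the 6 apoptosome modulators tested and none of the 7 IAPs and IAP antagonists passed the test in limma, with medians of 0.17 and -0.06. At an unadjusted p below 0.05 there were 2 of the modulators, both higher, and 0 of the IAP genes, beside the 19.6% of all genes, and voom also gave 0 past the adjusted p in both lists. Among the 13 substrates and effectors, only Lmna, the lamin A gene whose product caspase-6 cleaves, rose, from 11.7 to 13.5 FPKM in PBS to 20.6 to 30.4 FPKM in CTX (log2 difference 0.98, SE 0.15, limma, adjusted p = 0.033), and the median of that list was -0.13. The 4 p53 reference targets Cdkn1a, Mdm2, Ccng1 and Eda2r all rose, by 2.65, 0.87, 2.18 and 3.18 on the log2 scale (limma, adjusted p from 7.9e-04 to 0.022). The log2 difference of Apaf1, 0.85, lay between those of Bax and Mdm2.

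**Figure D4:**
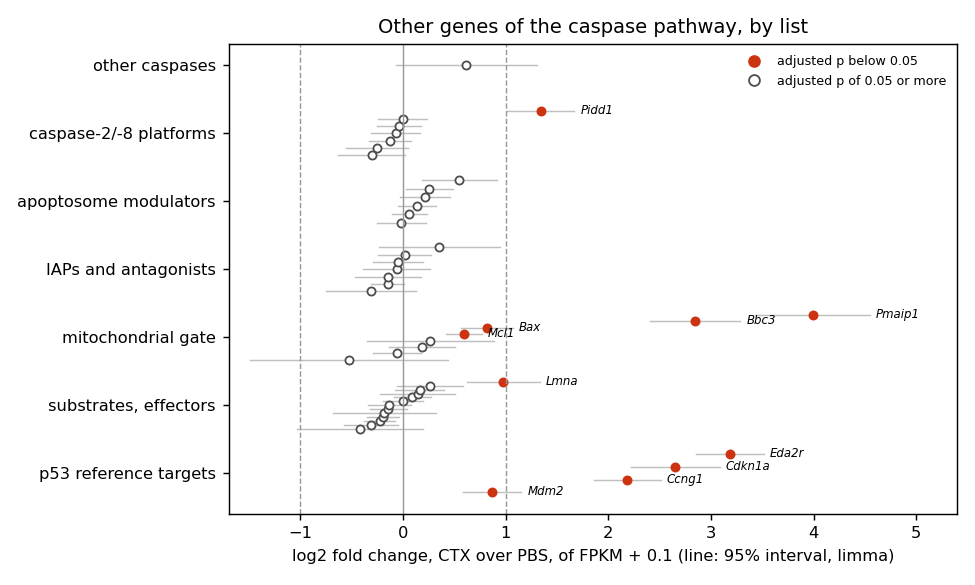
Difference between CTX and PBS on the log2(FPKM + 0.1) scale for the 46 tested genes of 7 lists of the caspase pathway, each with its 95% interval from limma, red where the adjusted p was below 0.05 and open otherwise, with dashed lines at a 2-fold change. The red points are the 10 genes that rose, 4 of them in the mitochondrial gate and 4 among the p53 reference targets, and no red point lies below 0.

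Of the 10 pathway genes that rose, 5 (Bbc3, Pmaip1, Cdkn1a, Ccng1 and Eda2r) kept an adjusted p below 0.05 in all 6 fits with a sample omitted. Pidd1 kept it in 3 of the 6 and Bax, Mcl1, Lmna and Mdm2 each in 2, with the highest adjusted p of these 5 genes between 0.069 for Pidd1 and 0.172 for Lmna.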

How the data were processed

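RNA-seq was measured in 3 PBS and 3 CTX samples of GCs, grouped by the sample descriptions. The authors deposited FPKM values for 54532 genes with gene lengths. Per the labels, and in the submitters' processing notes, CASAVA 1.8, fastp, HISAT2 2.0.5, featureCounts 1.5.0-p3, DESeq2 1.20.0 and mm10 are named. The strand setting and the treatment of reads that map to several places are not given in the sources used here. The table also holds group means, fold changes and p-values of the authors' own comparison, which were not used. FPKM × gene length, rescaled, gave whole reads (within 0.1) for 100% of values. These already carry a median-of-ratios scaling, which leaves differences relative to the typical gene.

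Genes with a mean of at least 0.5 FPKM were compared as log2(FPKM + 0.1) with limma 3.58.1 (lmFit, eBayes with trend, two-sided, Benjamini-Hochberg over 14463 genes) in R 4.3.3, without a block, because each sample held different mice. Fold changes of low genes are understated on this scale. A gene counted as called at an adjusted p below 0.05 and more than 2-fold. Intervals of 95% are from limma. The p-values measure the spread between pools of mice. Single values were also compared with the exact permutation test. Coordinates were checked against GENCODE M21, in which all 7 genes had the same start, end and exon length. Promoters of all 7 genes were matched by symbol in RefSeq (GRCm38.p6). Python 3.11.15 with pandas 2.3.3, NumPy 2.4.6 and matplotlib 3.10.9 was used for tables and figures.

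The members and gene lists were chosen with earlier results of these data known. All 7 members, the pathway genes with an adjusted p below 0.05, and for the 2 members with the lowest p the 3 most correlated genes were named with values, and Casp12, Aatf, Aifm1 and Endog were added after their values were seen. Other alternatives were pseudocounts of 1 and 0.01, other filters, scalings and weights, no trend, protein-coding genes only, voom on the rebuilt reads, a replicate block, and each sample left out. Protein sequences were not analysed here. Some genes of the planned lists are not reported here.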

Additional observations from a re-analysis of the deposited data

How the results depend on the processing

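The number of the 7 genes called was 0 in every setting but the one without a fold threshold, where it was 1 (Apaf1). That setting also gave 4 genes of the mitochondrial gate and 1 substrate. A mean FPKM of at least 5 left 1 gene of the gate called and no value for Diablo. Samples with the same replicate number did not deviate together (r = 0.056, 0.024 and 0.006), PBS replicate 2 correlated best with CTX replicate 3, and the labels do not pair them. With the replicate block, 53 genes of all tested had an adjusted p below 0.05 against 254 without it, 5 of the 10 pathway genes kept theirs, Pidd1 was not called, leaving 0 platform genes, and Apaf1 gave 0.85 with an adjusted p of 0.117. Array weights, lowest for CTX replicate 2 (0.164) and highest for CTX replicate 3 (16.6), gave -0.035 for Casp2 and -0.19 for Casp9 (limma, adjusted p = 0.037) and called 657 genes against 139. Casp8 turned negative with quantile normalization (-0.00021), scaling to library totals (-0.011) and voom (-0.010). voom called 125 genes. CTX replicate 3, which carried most of the CTX weight, had the lowest Casp9 value (8.43 FPKM). The weighted fit thus rests largely on 1 CTX sample. Scaling to library totals moved the median of all genes from -0.01 in the main fit to -0.04, as did voom. The main fit gave 0.02 for Casp8. The cause of these shifts was not tested.

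With each sample left out in turn, the log2 differences ran from -0.050 to 0.12 for Casp2, -0.048 to 0.071 for Casp8, -0.067 to 0.094 for Casp9, 0.090 to 0.19 for Casp6, 0.79 to 0.94 for Apaf1, -0.14 to -0.022 for Cycs and -0.041 to 0.22 for Diablo. The reversed signs were those of Casp2 and Diablo without CTX replicate 2, Casp8 without PBS replicate 2 or CTX replicate 2, and Casp9 without PBS replicate 3 or CTX replicate 3. The number called stayed at 0 of the 7 genes and ran from 0 to 1 for the platforms (0 when any of the PBS samples was left out) and from 0 to 1 for the substrates (1, without CTX replicate 1). All genes with an adjusted p below 0.05 numbered 70 to 526.

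The 7 genes had 249 to 2313 reads per sample, and Diablo, with the fewest, had the widest interval. With 3 samples a group, the intervals of the 6 genes that did not pass the test still allow changes of up to 1.37-fold.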

Other observations

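Some pathway genes were apart between the groups without passing the test. Of these, Aatf, Aifm1 and Endog are given here, picked after their values were seen. Ptma, Dffb, Xaf1 and Bcl2 were likewise higher in every CTX sample than in every PBS sample, and Birc2, Acin1 and Lmnb1 were lower. Aatf, a transcriptional cofactor in the list of apoptosome modulators, was at 7.63, 8.54 and 8.48 FPKM in PBS and 9.90, 14.8 and 11.8 FPKM in CTX, a log2 difference of 0.55 (SE 0.15, limma, adjusted p = 0.146). Aifm1, the mitochondrial apoptosis-inducing factor, was at 31.4, 30.0 and 32.1 FPKM in PBS and 27.6, 25.4 and 26.8 FPKM in CTX (-0.23, SE 0.06, limma, adjusted p = 0.146). Endog, the mitochondrial endonuclease G, was at 8.18, 8.83 and 8.65 FPKM in PBS and 6.49, 6.26 and 7.98 FPKM in CTX (-0.31, SE 0.11, limma, adjusted p = 0.203). Every CTX sample was above every PBS sample for 15.0% of all genes tested and below for 14.1%, so such separation was common in these libraries.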
